A study of Homo sapiens with 9 samples.

Results

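YKL-5-124 and samuraciclib are small-molecule inhibitors of cyclin-dependent kinase 7 (CDK7), and their RNA profiles were compared directly with each other at the same concentration. The comparison took the 3 libraries labelled YKL-5-124 and the 3 labelled samuraciclib, 6 of the 9 libraries of the series, and every gene with enough counts to be tested, 16065 of the 58929 genes in the count table. All 9 libraries were poly(A)-selected RNA from FaDu, an established line of hypopharyngeal squamous cell carcinoma, in the growth medium shared by every group. The inhibitor groups received 250 nM of one compound, and the remaining 3 libraries received the vehicle, DMSO. The treatment lasted 48 h by the treatment protocol and the published text, whereas the design text of the series gives 72 h. One line was used, the study's methods call the replicates biological without saying how they were kept apart, and p-values measure only the spread between these libraries. The inhibitors form 1 pair compared at 1 concentration and 1 time, and equal concentration is not known to be equal occupancy of CDK7.

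CDK7 binds cyclin H and MAT1 to form the CDK-activating kinase, which phosphorylates the activation loops of cell cycle kinases such as CDK1, CDK2 and CDK4. The same trimer is part of the general transcription factor TFIIH, where it phosphorylates the tail of the largest subunit of RNA polymerase II as a transcript is started. YKL-5-124 attaches to the kinase covalently, whereas samuraciclib competes with ATP for its pocket without a covalent bond.

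The 6 inhibitor libraries held 18264302 to 24613892 counts each, and the 3 DMSO libraries 18096180 to 28018126. Levels are given as CPM, a gene's counts scaled to a common library total. Over all tested genes the Pearson correlation of log2 levels was 0.9956 to 0.9965 within an inhibitor group and 0.9914 to 0.9936 between them, and no library was a copy of another. All 9 libraries carry the same batch label. One library of each group (replicate 3 of DMSO, replicate 2 of samuraciclib and of YKL-5-124) held 24.9 to 59.3 CPM of RN7SL2, the RNA of the signal recognition particle, against 696 to 981 in the other 6. KRT5, KRT17, TP63, EPCAM and the remaining squamous epithelial markers, 10 of 10, were detected, with a summed level of 6984 to 7283 CPM in samuraciclib libraries and of 6265 to 6714 CPM in YKL-5-124 libraries. LUM and KDR, which define fibroblasts and endothelium, were at 0 in all 9 libraries, and PTPRC and CD3E of leukocytes did not exceed 1 count. The endothelial cadherin CDH5 was nevertheless present at 18.7 to 31.0 CPM, and the 4 endothelial markers summed to 20.0 to 23.8 CPM under samuraciclib and 25.5 to 28.4 CPM under YKL-5-124. The 6 immune markers summed to 2.57 to 2.99 and 3.45 to 4.18, nearly all of it CD14, and the 7 fibroblast markers, nearly all COL1A1, to 4.82 to 6.12 and 3.94 to 5.72.

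YKL-5-124 and samuraciclib gave distinguishable transcriptomes at 250 nM, with differences that were mostly smaller than 2-fold. At an adjusted p below 0.05 in edgeR's quasi-likelihood test and a log2 difference beyond 0.5, 717 genes (4.46% of the tested genes) were higher with YKL-5-124 and 395 (2.46%) were lower, 1112 genes or 6.92% in all. Of these calls, 194 and 70 exceeded 2-fold. Among the 9172 genes that averaged 10 CPM or more over the 6 inhibitor libraries, the calls were even, at 142 higher and 158 lower. For 8172 of those 9172 genes (89.1%) the whole 95% interval of the difference lay within 0.5 on the log2 scale in either direction. Without the 3 libraries low in RN7SL2 the calls were 636 higher and 349 lower. The median difference over all tested genes was 0.0079.

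**Figure D1:**
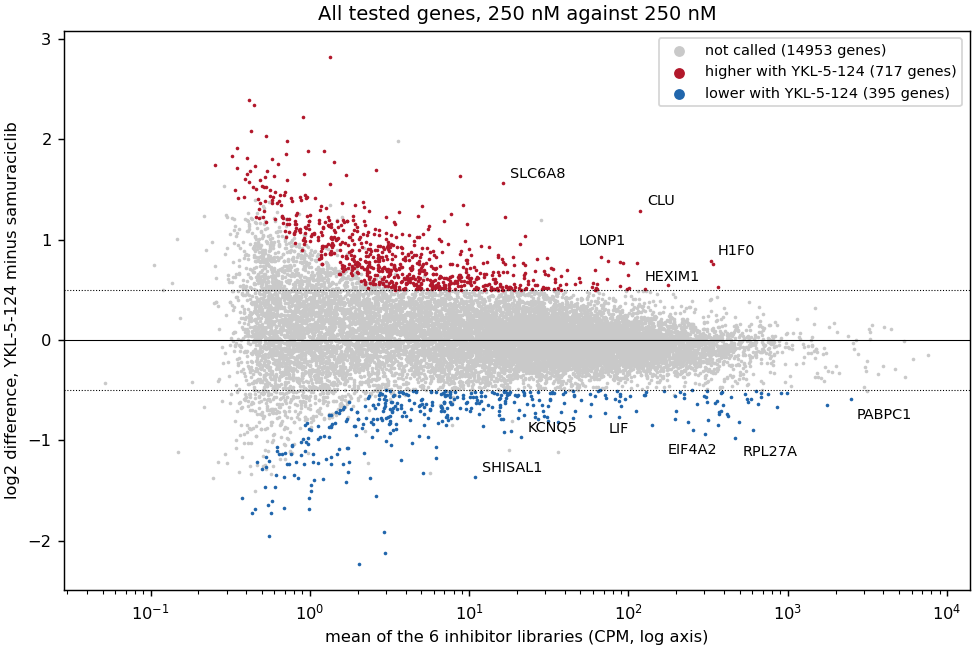
Each point is 1 of the 16065 tested genes, with its mean over the 6 inhibitor libraries (CPM, log axis) and its log2 difference, YKL-5-124 minus samuraciclib. Dotted lines mark 0.5 in either direction. Red points, 717, are called higher and blue points, 395, lower, and the calls at the highest levels are mostly blue, among them RPL27A and PABPC1.

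Among protein-coding genes at 10 CPM or more, those furthest above the samuraciclib level included genes of transport, of a secreted chaperone and of lipid handling. SLC6A8, the creatine transporter (ENSG00000130821, GRCh38 chromosome X, 153688099 to 153696593, plus strand), was at 8.14, 7.29 and 9.30 CPM in the samuraciclib libraries and at 24.98, 24.6 and 23.3 CPM in the YKL-5-124 libraries. The DMSO libraries, at 7.96, 8.36 and 8.59 CPM, lay within the samuraciclib range. The log2 difference was 1.56 ± 0.098 (SE, n = 3 libraries per group), 2.95-fold, with an edgeR adjusted p of 8.29e-09. CLU, which encodes the extracellular chaperone clusterin, was at 66.1, 68.2 and 72.5 CPM with samuraciclib and at 164, 164 and 177 CPM with YKL-5-124, a difference of 1.29 ± 0.058. Every YKL-5-124 library exceeded every samuraciclib library for both genes, which the rule for naming the 15 largest differences in each direction required. TLCD1, which encodes a membrane protein that regulates phospholipid composition, was higher by 1.22 ± 0.095, although 56.8% of its gene model overlaps NEK8 and the strand setting of the counting was not given in the sources used here. DGAT1, which makes triacylglycerol, and PHYH, which starts the breakdown of phytanic acid in peroxisomes, were higher by 0.82 and 0.94.

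Several of the largest differences were in genes that were further below DMSO with samuraciclib than with YKL-5-124. LONP1, the protease of the mitochondrial matrix, was at 50.1, 43.9 and 50.8 CPM with samuraciclib and at 87.6, 79.8 and 89.2 CPM with YKL-5-124, while DMSO gave 119, 123 and 121 CPM. The difference between the inhibitors was 0.82 ± 0.061 with an edgeR adjusted p of 5.66e-08. The 3 groups did not overlap, in the order samuraciclib, YKL-5-124, DMSO. MFNG, a glycosyltransferase that modifies Notch receptors, had the same order with means of 13.6 ± 1.48, 24.1 ± 2.27 and 41.3 ± 1.33 CPM (SD, n = 3). DDX60, an interferon-induced helicase, and ABCA7, a phospholipid transporter, were at 19.6 and 20.6 CPM on average with YKL-5-124, close to 20.1 and 20.7 CPM in DMSO, but at 11.02 and 11.7 CPM with samuraciclib.

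The genes furthest below the samuraciclib level were led by SHISAL1 and by components of the translation machinery. SHISAL1, a Shisa-like membrane protein gene (ENSG00000138944, chromosome 22, 44243667 to 44312851, minus strand), was at 17.9, 15.8 and 13.4 CPM with samuraciclib and at 6.61, 7.17 and 4.38 CPM with YKL-5-124, a difference of −1.37 ± 0.14 with an edgeR adjusted p of 3.76e-06. KCNQ5, a voltage-gated potassium channel gene, was at 26.0, 27.8 and 30.01 CPM against 14.4, 14.7 and 13.9 CPM. The samuraciclib libraries were at or just above the DMSO level of 24.3 to 26.8 CPM for KCNQ5, and the YKL-5-124 libraries lay well below it. SAMD4A, an RNA-binding translational repressor, KIAA1549, the actin-binding drebrin gene DBN1 and the LIM-domain gene FHL1 were lower by 0.91, 0.86, 0.81 and 0.79 on the log2 scale. The remaining places among the 15 largest differences in this direction were taken by 7 ribosomal protein genes, the helicase gene EIF4A2 and the cytokine gene LIF.

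**Figure D2:**
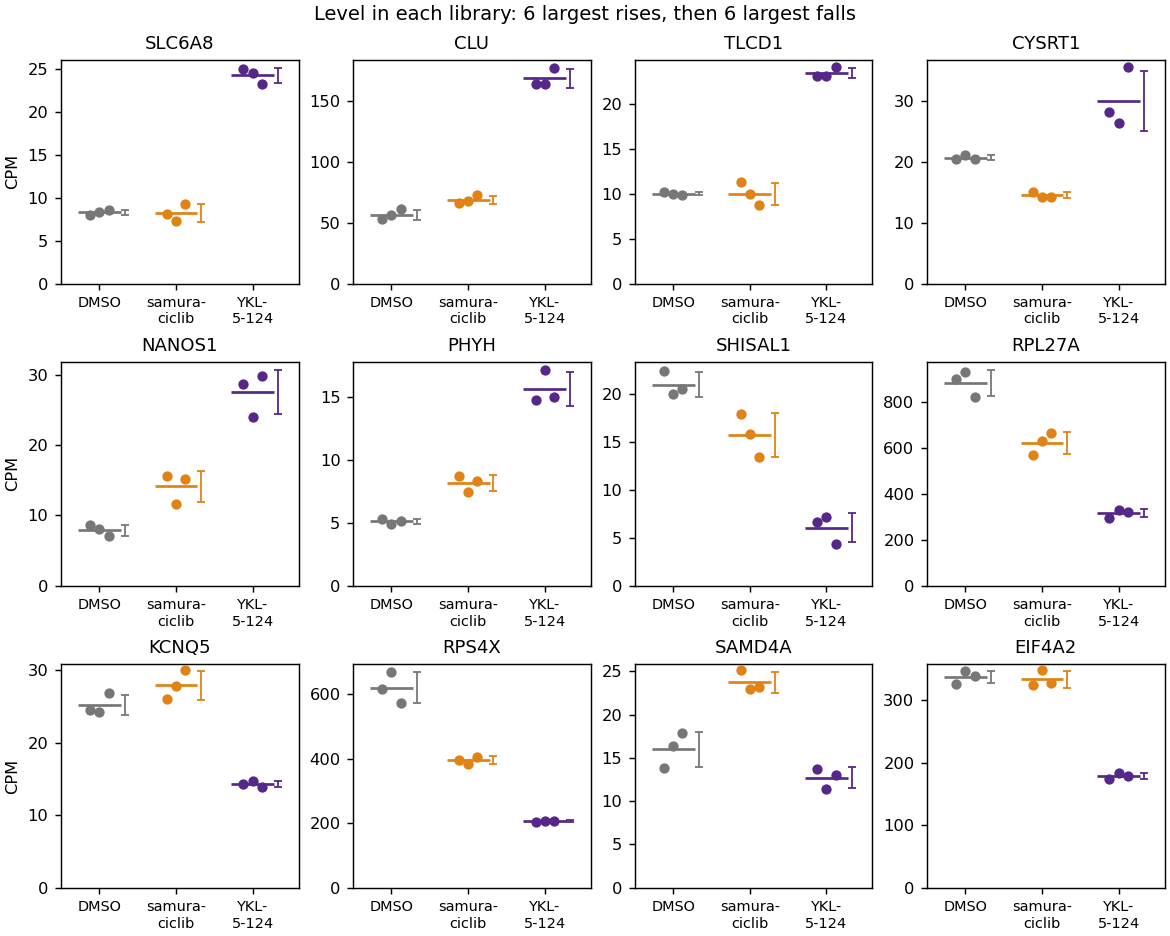
Points are single libraries (CPM, each axis from 0), lines are group means and the bars beside them are 1 SD (n = 3). The 12 panels show the 6 genes furthest above and then the 6 furthest below samuraciclib. The inhibitor points do not overlap, as the choice of genes required, and the position of DMSO relative to both differs from gene to gene.

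Messenger RNAs of the cytosolic ribosome had the lowest median of the 59 gene lists examined. Ribosomal protein transcripts are among the most abundant in a growing cell, and most begin with a C followed by an unbroken run of pyrimidines, the terminal oligopyrimidine tract, through which their translation and stability are regulated. Of 79 ribosomal protein genes, all tested, 39 were lower with YKL-5-124 and 0 were higher, where 2.46% of all tested genes were lower. The median difference was −0.50 and 78 of the 79 estimates were below 0. Both subunits contributed, with 23 of 47 genes of the large and 16 of 32 of the small subunit lower, at medians of −0.50 and −0.49. As a share of all counts the 79 genes held 4.24%, 4.17% and 4.50% in the samuraciclib libraries and 3.11%, 3.18% and 3.39% in the YKL-5-124 libraries, against 5.78% to 6.19% in DMSO. With scaling by library size alone 26 of the 79 were lower, with any 1 inhibitor library left out 34 to 42, and without the 3 libraries low in RN7SL2 34. The shares of the 3 groups did not overlap. In bulk RNA, fewer cells with a transcript and less of it per cell cannot be told apart.

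RPL27A, of the large subunit, had the largest difference of the group. It was at 569, 631 and 665 CPM with samuraciclib and at 297, 331 and 318 CPM with YKL-5-124, a difference of −0.98 ± 0.063 with an edgeR adjusted p of 1.18e-08. RPS4X, RPL13, RPL23, RPL21, RPS24, RPS3A and RPL31 followed with −0.94, −0.90, −0.85, −0.82, −0.81, −0.80 and −0.79. At the other end, RPS26 was at 249 and 251 CPM on average and FAU, which encodes a ubiquitin-like fusion of a small-subunit protein, at 212 and 208 CPM, with differences of 0.013 (95% interval −0.11 to 0.13) and −0.029 (−0.15 to 0.087). RPL15 and RPL18 were likewise near 0, at −0.12 and −0.15. The direction was thus nearly uniform while the size varied among members. Ribosomal protein genes share reads with many processed pseudogenes, and RPS4X, RPL31 and RPL27A also overlap other gene models over 100%, 73.6% and 66.2% of their length, so that the single values of these genes are uncertain.

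The windows below run from 10 bases before to 20 bases after the gene start annotated by RefSeq (GRCh38.p14, gene strand, 5′ to 3′), and are shown because the tract at this position is the known feature of the class. Capitals mark the longest run in the window that begins with C and continues with C or T alone for at least 6 bases. The first 4 are examples, chosen after their values were seen, of genes called lower whose window holds such a run, and the last 2 are examples of genes called lower whose window holds none. Only the annotated gene start was examined, and the start in use in these cells was not measured. A window without the run therefore does not show that the transcript lacks the tract.
RPL27A chr11:8682782-8682811: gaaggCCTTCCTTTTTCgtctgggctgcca
RPL21 chr13:27251548-27251577: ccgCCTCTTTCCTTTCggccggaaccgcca
RPS24 chr10:78033853-78033882: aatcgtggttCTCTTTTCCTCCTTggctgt
RPL31 chr2:101002279-101002308: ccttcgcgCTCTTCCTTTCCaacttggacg
RPS4X chrX:72277229-72277258: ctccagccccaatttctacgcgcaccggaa
RPL13 chr16:89560647-89560676: tgctatcatcccagagtgcattgcggggcc
Such a run was present in 23.2% of the 27305 RefSeq windows of this kind. Windows were matched for 63 of the 79 ribosomal protein genes, of which 52 held the run, and since fewer than 80% were matched no comparison over the class was made.

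Differences in other genes of translation were smaller on average. Of 45 tested translation factors, 5 (11.1%) were lower, beside 2.46% of all tested genes, and 0 were higher, with a median of −0.15. EIF4A2, a helicase that unwinds messenger leaders, was at 325, 349 and 327 CPM with samuraciclib, at the DMSO level of 327 to 347 CPM, and at 174, 184 and 178 CPM with YKL-5-124. The difference was −0.90 ± 0.048 with an edgeR adjusted p of 2.23e-09. PABPC1, the main cytoplasmic poly(A)-binding protein, was lower by 0.59 on the log2 scale from a mean of 2994 CPM. EIF3E, EEF1B2 and PABPC4 were lower by 0.61, 0.52 and 0.50, and the last of these lies at the edge of the 0.5 limit. By contrast, none of 64 ribosome biogenesis and RNA polymerase I genes and none of 20 aminoacyl-tRNA synthetase genes was called, with medians of −0.081 and −0.053 (the second 0.016 with scaling by library size alone), and of 78 mitochondrial ribosomal protein genes only MRPL57, at 0.50, was. That call held in 8 of 17 alternatives and was lost with DESeq2, with DESeq2 size factors and with TMM scaling that left out ribosomal protein genes.

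Host genes of small nucleolar RNAs, several of which begin with the same kind of tract, were lower as well, with a median of −0.28. Of 25 tested, 7 (28%) were lower, beside 2.46% of all tested genes, and none was higher. SNHG5 was at 69.9, 70.7 and 76.0 CPM with samuraciclib and at 41.1, 41.8 and 45.0 CPM with YKL-5-124, a difference of −0.76 ± 0.062. SNHG8, SNHG4, SNHG12, LRRC75A-AS1 and DANCR had differences of −0.71, −0.56, −0.55, −0.51 and −0.50. The calls of LRRC75A-AS1 and DANCR each held in 9 of 17 alternatives. Without replicate 2 of samuraciclib 4 of the 25 were lower, and with scaling by library size alone 3 were. Processed pseudogenes, genomic copies of spliced messenger RNAs, had 39 of 464 (8.41%) lower and 7 (1.51%) higher, beside 2.46% and 4.46% of all tested genes. RPL13P12 and AC116533.1 had differences of −0.92 and −0.81, and reads of the first may come from RPL13 itself.

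**Figure D3:**
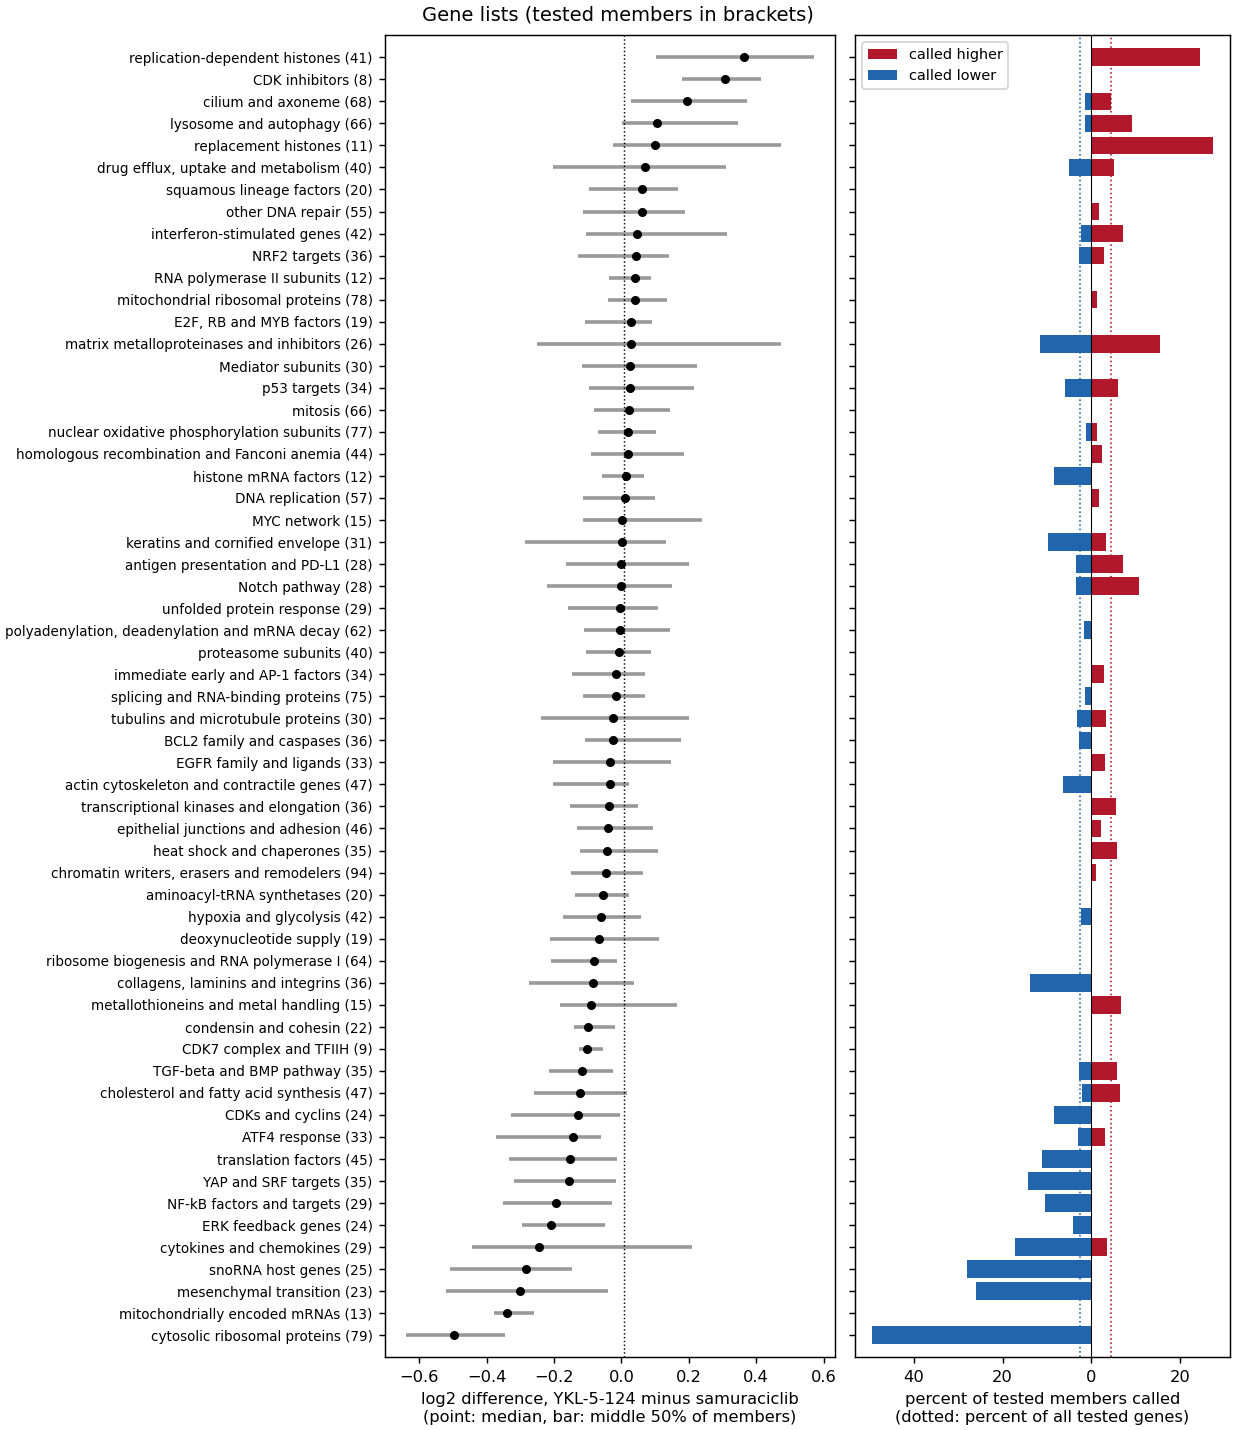
For each of 59 gene lists, ordered by median, the left panel shows the median log2 difference (point) and the middle 50% of the tested members (bar), with the median of all tested genes dotted. The right panel shows the percent of tested members called higher (red) or lower (blue), with 4.46% and 2.46% of all tested genes dotted. Cytosolic ribosomal proteins lie lowest, at −0.50, and replication-dependent histones highest, at 0.36.

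Histone genes had the opposite direction. Replication-dependent histone transcripts normally end in a stem-loop without a poly(A) tail, so that a poly(A)-selected library captures chiefly the polyadenylated forms. Of 41 tested genes 10 were higher with YKL-5-124 and 0 lower, beside 4.46% of all tested genes, and the median was 0.36. HIST1H2BK was at 46.7, 49.995 and 47.2 CPM with samuraciclib and at 70.5, 70.6 and 72.6 CPM with YKL-5-124. The difference was 0.57 ± 0.054 with an edgeR adjusted p of 1.01e-06, and both inhibitor groups lay far above the DMSO mean of 17.3 CPM. HIST3H2A, in turn, was at 47.3, 44.5 and 49.1 CPM with samuraciclib, overlapping the DMSO range of 41.9 to 48.4 CPM, and at 75.5, 70.2 and 82.2 CPM with YKL-5-124. HIST1H2AG, HIST1H1C, HIST1H2BJ and HIST1H4I were higher by 0.89, 0.70, 0.53 and 0.52. All 70 genes of the list, tested or not, were together a small fraction of each library. They held between 0.0348% and 0.0378% for samuraciclib and between 0.0505% and 0.0536% for YKL-5-124. Of the 41 tested genes, 7 were called without the 3 libraries low in RN7SL2.

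Among 11 genes of replacement histones and replication-independent linker histones, 3 (27.3%) were higher, beside 4.46% of all tested genes, and none was lower. H1F0, the linker histone of slowly dividing cells, was at 235, 245 and 241 CPM with samuraciclib and at 403, 447 and 400.0 CPM with YKL-5-124, a difference of 0.79 ± 0.053 with an edgeR adjusted p of 2.11e-08. DMSO lay above both at a mean of 508.5 CPM. H2AFJ and H1FX were higher by 0.78 and 0.77. Of 12 genes for histone mRNA processing, LSM11, a subunit of the U7 particle, was lower at −0.63, and the other 11 did not pass the limits.

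The genes of CDK7 itself and of its known substrate pathways differed by little. CDK7 was at 75.7, 74.7 and 81.9 CPM with samuraciclib and at 68.5, 73.6 and 73.5 CPM with YKL-5-124. The groups did not overlap, yet the difference of −0.11 (95% interval −0.23 to 0.017) had an edgeR adjusted p of 0.203. All 9 tested genes of the CDK7 trimer and TFIIH, and all 12 of RNA polymerase II, had intervals within 0.5 in either direction. None of 30 Mediator subunit genes was called, but only 22 had such an interval, with estimates from −0.37 to 0.49. Among the alternatives up to 3 Mediator genes were called higher. HEXIM1 stood apart among the 36 genes of transcriptional kinases and elongation. It encodes an inhibitor of the elongation kinase P-TEFb and was at 83.6, 84.6 and 83.7 CPM with samuraciclib and at 149, 146 and 134 CPM with YKL-5-124, a difference of 0.77 ± 0.048 with an edgeR adjusted p of 8.29e-09. DMSO lay between them, at 106 to 108 CPM. EAF2, an elongation cofactor at 1.42 and 2.63 CPM on average, was the only other call of that list, at 0.90 ± 0.24. The kinase gene CDK12 was lower by 0.27 on the log2 scale and CDK9 by 0.17, below the limit on size.

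Cell cycle genes were at nearly the same level with both inhibitors. Of 66 mitosis genes none was called, 64 had the whole 95% interval within 0.5, and the median was 0.024. The medians of these genes against DMSO were −0.35 with YKL-5-124 and −0.36 with samuraciclib, from a comparison that shares the DMSO libraries. For 57 DNA replication genes the count was 1 higher and the median 0.012, with −0.34 and −0.35 against DMSO, and for 44 homologous recombination and Fanconi anemia genes it was 1 higher and 0.019. The exceptions were POLD4 (0.76), a small subunit of DNA polymerase delta that overlaps RAD9A over its whole length, and FANCF (0.63). POLI, a translesion polymerase, was the only call of 55 other repair genes, at 0.93. Among single genes, E2F1 was higher by 0.22 ± 0.050 and RRM2, of ribonucleotide reductase, lower by 0.24 on the log2 scale, neither beyond 0.5. MYC (−0.17, 95% interval −0.28 to −0.055) and RB1 (−0.17, −0.28 to −0.065) were lower without overlap between the groups, but by less than the 0.5 limit. CCND1 (0.034), CCNE2 (−0.063) and MCL1 (−0.070) were close to 0.

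Of 24 genes of CDKs and cyclins 2 (8.33%) were lower, beside 2.46% of all tested genes, and none was higher. CCND2, of cyclin D2, was at 255, 272 and 270.3 CPM with samuraciclib and at 180.2, 184 and 185 CPM with YKL-5-124, a difference of −0.54 ± 0.045 with an edgeR adjusted p of 2.87e-07. Both were above the DMSO mean of 148 CPM, and an overlapping gene model covers CCND2 completely. CDK14, a cyclin Y partner, was lower at −0.68 from a mean of 3.59 CPM. None of 8 CDK inhibitor genes was called, although all 8 estimates were above 0 with a median of 0.31. CDKN1A, the p21 gene, was at 53.6, 58.7 and 61.1 CPM and at 57.4, 53.9 and 63.7 CPM, with a difference of 0.013 (95% interval −0.13 to 0.16).

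Several cytokine, integrin and mesenchymal genes were lower with YKL-5-124 than with samuraciclib, and the shares of each list are to be read beside 2.46% of all tested genes lower and 4.46% higher. Of 29 tested cytokines and chemokines 5 (17.2%) were lower and 1 (3.45%) was higher. LIF, which signals through gp130 and STAT3, was at 188, 186 and 172 CPM with samuraciclib, close to 184 to 188 CPM in DMSO, and at 109, 94.7 and 100.3 CPM with YKL-5-124. The difference was −0.85 ± 0.052 with an edgeR adjusted p of 8.29e-09. IL1A was at 58.0, 57.9 and 55.8 CPM against 32.1, 37.0 and 35.7 CPM, and the DMSO libraries at 46.4 to 48.5 CPM fell between the groups. CSF1, IL32 and CSF2 were lower by 0.64, 1.37 and 1.95 on the log2 scale, of which IL32 and CSF2 were below 4 CPM in every library, and IL1RN, the natural antagonist of interleukin-1 receptors, was higher by 0.52. NF-kB factors and targets had 3 of 29 (10.3%) lower (PTGS2, CD83 and GADD45A, at −0.65, −0.55 and −0.55) and none higher.

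Of 23 tested genes of mesenchymal transition 6 (26.1%) were lower and none higher, with a median of −0.30. CDH2, N-cadherin, was at 49.0, 43.9 and 50.6 CPM with samuraciclib and at 31.3, 32.2 and 29.5 CPM with YKL-5-124. TNC, PDPN, CDH11, WNT5A and WNT5B were lower by 0.55, 0.80, 0.84, 1.39 and 1.24 on the log2 scale, at group means of 0.547 to 18.8 CPM, and another gene model covers TNC fully. Collagens, laminins and integrins had 5 of 36 (13.9%) lower and none higher, while epithelial junction and adhesion genes had none of 46 lower and 1 higher. ITGB8, which frees TGF-beta from its latent form, was at 30.3, 31.3 and 30.6 CPM with samuraciclib and at 18.5, 20.0 and 20.2 CPM with YKL-5-124, the second group overlapping DMSO, whose highest library was at 19.9 CPM. ITGA5 and ITGB6 showed the same order with −0.55 and −0.58. In all 3 integrin genes the samuraciclib libraries were the highest of the 9, and gene models overlap ITGA5 over 100% and ITGB6 over 58.0%. YAP and SRF target genes had 5 of 35 (14.3%) lower and none higher, among them NUAK2 (−0.59) and EDN1 (−0.84), and MYL9, of the actin list, fell from 86.5 ± 7.35 to 58.1 ± 4.68 CPM, both above the DMSO mean of 21.7 CPM. Another gene model covers MYL9 fully.

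The list of matrix metalloproteinases and their inhibitors also held ADAM and ADAMTS protease genes. Of its 26 tested genes 4 (15.4%) were higher and 3 (11.5%) lower, beside 4.46% and 2.46% of all tested genes. MMP15, MMP12 and MMP10 were higher by 0.51, 0.92 and 0.71, and MMP2, ADAM19 and ADAMTS1 were lower by 0.76, 1.03 and 0.62 on the log2 scale. Of the 3 lower genes only MMP2 is a matrix metalloproteinase. MMP12, MMP10, MMP2 and ADAM19 had inhibitor group means below 10 CPM. Of 42 interferon-stimulated genes 3 (7.14%) were higher (DDX60, IFI6 and OASL) and 1 (2.38%) was lower (IFITM2). The shares over all tested genes were 4.46% and 2.46%, and the median of the list was 0.045. The call of OASL held in 12 of 17 alternatives. CD274, the gene of PD-L1, was at 20.5, 22.1 and 18.9 CPM with samuraciclib and at 12.7, 15.1 and 14.2 CPM with YKL-5-124, above the DMSO range of 8.47 to 9.64 CPM in every library. Its difference of −0.55 ± 0.095 lost the call without replicate 2 of samuraciclib or without replicate 1 of YKL-5-124, and with scaling by library size alone. Keratin and cornified envelope genes had 3 of 31 (9.68%) lower and 1 (3.23%) higher, beside 2.46% and 4.46% of all tested genes. The median of the list was 0.0010, with 15 estimates below 0 and 16 above. KRT14 was lower at −0.77, KRT16 at −0.56 and TGM1, a transglutaminase of the cornified envelope, at −0.71, and KRT80, a type II keratin, was higher at 0.52. The calls of KRT16 and TGM1 held in 12 of 17 and 7 of 16 alternatives. BCL2, which blocks apoptosis, was at 9.17, 7.70 and 8.99 CPM against 4.94, 5.56 and 4.18 CPM, and the YKL-5-124 libraries lay around the DMSO mean of 4.58 CPM. It was the only call of 36 tested BCL2 family and caspase genes, a share of 2.78% beside 2.46% of all tested genes lower. The median of that list was −0.024.

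Lysosome and autophagy genes had 6 of 66 (9.09%) higher, 1 (1.52%) lower and a median of 0.11, beside 4.46% and 2.46% of all tested genes called. GAA, which degrades glycogen in the lysosome, was at 39.6, 41.1 and 39.3 CPM with samuraciclib and at 58.6, 60.2 and 60.5 CPM with YKL-5-124, and DMSO at 36.8 to 41.3 CPM overlapped samuraciclib. Its difference was 0.58 ± 0.057. NEU1, a sialidase, was higher by 0.51, as were the protease gene CTSV (0.85) and the sulfatase genes ARSD (0.65) and ARSA (0.62). TFEB, the transcription factor of lysosome biogenesis, was the 1 lower gene, at means of 1.05 and 0.338 CPM. Of 47 genes of cholesterol and fatty acid synthesis 3 (6.38%) were higher and 1 (2.13%) lower, and the median was −0.12. TM7SF2, a sterol reductase, was at 4.68, 4.01 and 4.93 CPM against 10.8, 9.52 and 12.2 CPM, a difference of 1.25 ± 0.14. Of 40 genes of drug efflux, uptake and metabolism 2 were higher and 2 lower, 5% each, beside 4.46% and 2.46% of all tested genes. EPHX1, an epoxide hydrolase, and ALDH3B1 were higher by 0.79 and 0.61, and TIPARP and CYP1B1 were lower, at −0.54 and −0.53. The call of CYP1B1 held in 11 of 17 alternatives. ABCB1 and ABCG2, the efflux pumps, had wide intervals at 0.14 (−0.47 to 0.74) and −0.12 (−0.59 to 0.36).

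Several other lists had a few calls each. Notch pathway genes had 3 of 28 higher (MFNG, HES6 and the ligand gene DLL4, at 0.83, 0.93 and 0.73) and 1 lower, the coactivator gene MAML2 at −0.77. These were 10.7% and 3.57% of the list, beside 4.46% and 2.46% of all tested genes. The call of DLL4 held in 7 of 16 alternatives and was lost with DESeq2 and without any 1 of 5 inhibitor libraries, the exception being replicate 2 of YKL-5-124. In the TGF-beta and BMP pathway, with 35 genes tested, LTBP1, which anchors latent TGF-beta in the matrix, and SMAD6, an inhibitory SMAD, were higher by 0.88 and 1.13, and the co-receptor gene TGFBR3 was lower at −0.81, all at group means below 10 CPM. These calls were 5.71% and 2.86% of the list, beside 4.46% and 2.46% of all tested genes. Below 0 lay 28 of the 35 estimates, with a median of −0.12. Of 68 genes of cilium and axoneme 3 were higher (CFAP44, DNAH1 and CFAP70), a share of 4.41% beside 4.46% of all tested genes, and 1 was lower (BBS12, a call that held in 6 of 17 alternatives and was lost with DESeq2 and with the 6 inhibitor libraries alone). In the same list 54 of the 68 estimates were above 0, and the median was 0.19. HSPA1A, an inducible heat shock protein, was higher by 0.55, at means of 76.4, 145 and 211 CPM with DMSO, samuraciclib and YKL-5-124. HSPA1A and CLU were the 2 calls of 35 heat shock and chaperone genes, 5.71% beside 4.46% of all tested genes higher. Of those 35 estimates 22 were below 0, and the median was −0.042. ULBP1, a ligand of the natural killer cell receptor NKG2D, was higher by 1.05, from 2.75 to 5.67 CPM.

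Mitochondrially encoded messenger RNAs, which carry subunits of the respiratory chain, differed as much between libraries as between inhibitors. All 13 estimates were below 0, with a median of −0.34, yet none was called and the groups overlapped for every gene. As a share of all counts they were 4.21%, 4.93% and 2.76% in the samuraciclib libraries and 3.65%, 3.87% and 2.76% in the YKL-5-124 libraries. Without replicate 3 of samuraciclib the median was −0.55 and 8 of 13 were called lower, without replicate 2 of YKL-5-124 it was −0.43 with 3 called, and without replicate 2 of samuraciclib it was −0.15 with none called.

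Set beside DMSO, the genes with the largest differences between the inhibitors fell into several patterns, and both comparisons share the same 3 DMSO libraries. Of the 16065 genes, 1911 were higher and 1595 lower with YKL-5-124 than with DMSO, and 1312 and 1535 with samuraciclib. SLC6A8 and TLCD1 were 1.54 and 1.23 above DMSO with YKL-5-124 and −0.017 and 0.0031 from it with samuraciclib. NANOS1, a translational repressor of the germ line, PHYH and HES6, a Notch-related repressor, were above DMSO with both, by 1.81, 1.61 and 1.69 with YKL-5-124 and by 0.85, 0.68 and 0.76 with samuraciclib. LONP1, MFNG and H1F0 were below DMSO with both. EIF4A2 and LIF were at the DMSO level with samuraciclib, at −0.016 and −0.025, and at −0.92 and −0.88 with YKL-5-124. KIAA1549 and SAMD4A were 0.74 and 0.56 above DMSO with samuraciclib and −0.12 and −0.35 from it with YKL-5-124. CYSRT1, a cysteine-rich epidermal protein gene, was at 20.4, 21.1 and 20.5 CPM with DMSO, at 15.1, 14.3 and 14.3 CPM with samuraciclib and at 28.2, 26.3 and 35.7 CPM with YKL-5-124, so that DMSO lay between groups that did not overlap. Its difference between the inhibitors was 1.04 ± 0.099 with an edgeR adjusted p of 1.06e-06. RIBC2 and AL365181.2, both under 10 CPM and named after their values were seen, were the other genes called in opposite directions against DMSO.

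**Figure D4:**
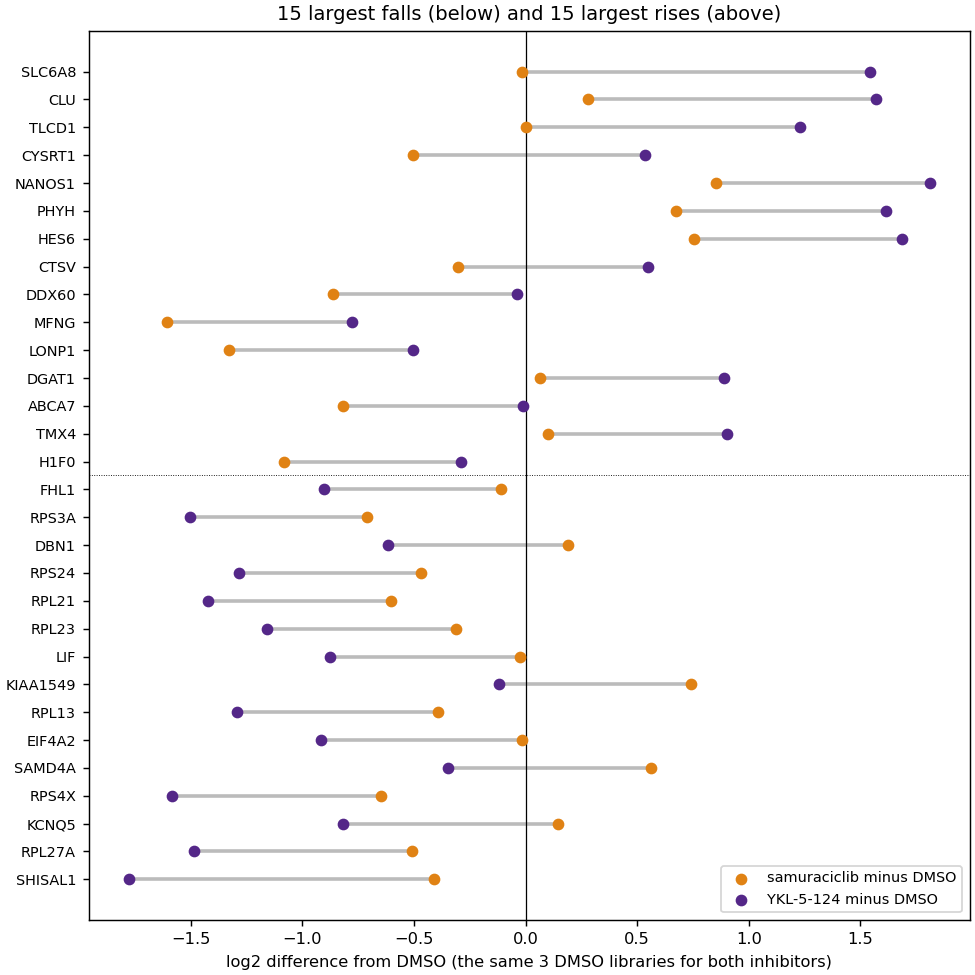
Each row is 1 of the 15 genes furthest above samuraciclib (above the dotted line) and the 15 furthest below it (below the line), with its log2 difference from the same 3 DMSO libraries for samuraciclib (orange) and YKL-5-124 (purple). The gray bar between them is the difference between the inhibitors. CYSRT1, at −0.51 and 0.53, is the only one of these genes that passed the limits against DMSO in opposite directions.

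Among annotated biotypes, larger shares of antisense and lincRNA genes than of protein-coding genes were called higher. Of 917 tested antisense genes 100 (10.9%) were higher and 10 lower, and of 655 lincRNA genes 81 (12.4%) were higher and 8 lower, against 458 (3.56%) and 303 of 12874 protein-coding genes. These classes differ in level, so the counts were set side by side at equal level. Between 1 and 3 CPM the shares were close for antisense and protein-coding genes, at 11.2% of 313 and 10.4% of 1243, with 16.8% of 196 lincRNA genes. Between 3 and 10 CPM, 22.5% of 151 antisense genes and 20.2% of 104 lincRNA genes were higher, against 9.12% of 1854 protein-coding genes, and at 10 CPM or more the shares were 7.69% of 39, 14.9% of 47 and 1.43% of 8890. The median deviation of the 1572 antisense and lincRNA genes from the mean of the 6 libraries was −0.11, −0.072 and −0.11 in the samuraciclib libraries and 0.15, 0.11 and 0.12 in the YKL-5-124 libraries, without overlap. TMPO-AS1, antisense to the TMPO gene, was at 7.02, 7.201 and 7.76 CPM against 12.1, 13.9 and 13.5 CPM. LINC00431, annotated as a transcribed unprocessed pseudogene, was higher by 0.77 ± 0.087, from 16.1 to 27.4 CPM, with DMSO at 5.09 CPM. Without a stated strand setting, reads of an antisense gene and of its partner cannot be told apart.

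The median difference of protein-coding genes varied with genomic span, the distance from the first to the last annotated base. Genes of ribosomal proteins and replication-dependent histones were set aside, and 8805 genes at 10 CPM or more remained. Of 580 genes under 5 kb, 27 were higher and 5 lower, with a median of 0.066, and of 551 genes over 200 kb, 2 were higher and 15 lower, with a median of −0.081. The classes between, bounded at 20, 50 and 100 kb, had medians of −0.0011, −0.018, −0.032 and −0.072. By library, the longest genes deviated from the mean of the 6 libraries by 0.067, 0.055 and 0.026 with samuraciclib and by −0.036, −0.026 and −0.066 with YKL-5-124, so that the groups did not overlap. The shortest genes deviated by −0.028, −0.10 and 0.031 and by 0.0042, −0.010 and 0.11, and here the groups did overlap. The median of the shortest genes was 0.016 without replicate 3 of YKL-5-124 and 0.030 without replicate 2 of samuraciclib, and that of the longest stayed between −0.10 and −0.068 when any one inhibitor library was left out. These medians are small beside the 0.5 limit, and with scaling by library size alone that of the longest genes was −0.011 and that of the shortest 0.14.

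**Figure D5:**
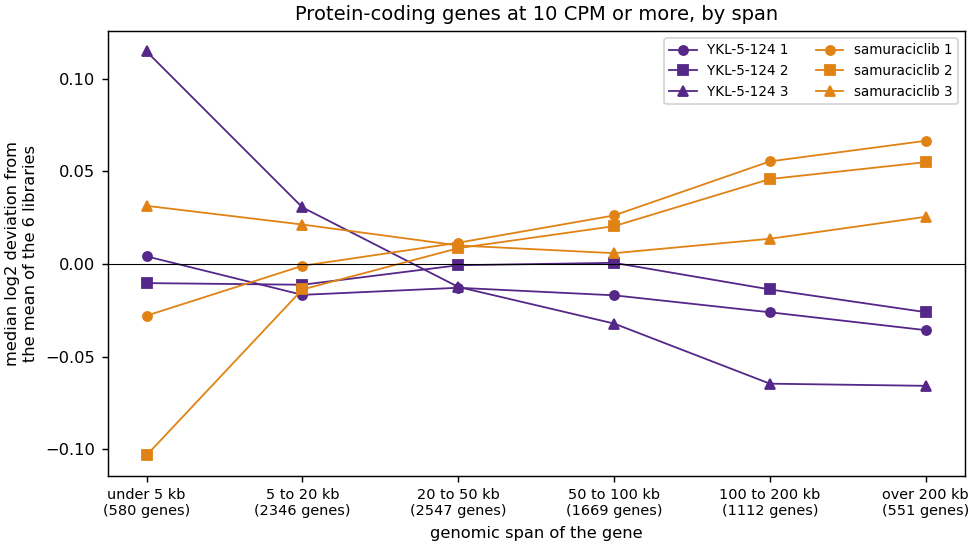
Lines are the 6 inhibitor libraries, and each point is the median log2 deviation from the mean of the 6 libraries over the protein-coding genes of 1 class of span at 10 CPM or more, without ribosomal protein and replication-dependent histone genes. The orange samuraciclib libraries lie above 0 and the purple YKL-5-124 libraries below it for genes over 100 kb, whereas under 5 kb the colors mix.

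Named genes at both ends of this scale carried large values. Above 200 kb and 10 CPM, KCNQ5, SAMD4A, CDH2 and the synaptic scaffold gene SHANK2 were lower, the last from 110.3 to 64.8 CPM on average (−0.77 ± 0.047), and REPS2 and PDGFD were the 2 higher genes, at 0.57 and 0.61. SHANK2, REPS2 and PDGFD were named after their values were seen. Of the 112 genes with a single exon at 10 CPM or more, histones included, 11 (9.82%) were higher and none lower, beside 116 of 8774 genes (1.32%) with more exons. With ribosomal protein and replication-dependent histone genes set aside, the single-exon median was 0.12, and it was 0.035 without replicate 2 of samuraciclib and 0.025 without replicate 3 of YKL-5-124. The higher genes were NANOS1, H1F0, H1FX, HEXIM1, HIST1H1C, PLPP6, PIGM, PNMA1, FANCF, HIST1H2BK and HIST1H4I, with differences of 0.52 to 0.96. PLPP6, PIGM and PNMA1 were named after their values were seen.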

How the data were processed

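RNA of FaDu cells treated with DMSO, samuraciclib or YKL-5-124 was sequenced as 3 libraries per group. The deposited values were raw counts per gene, which the authors made by aligning paired-end reads to GRCh38 with HISAT2 and counting them over GENCODE genes with featureCounts 2.0.6. The annotation release and the strand setting were not given in the sources used here. Besides the overlaps stated with single genes, other named genes overlap another gene model on either strand. Among them are HES6, KRT80, MMP10 and SNHG4 (each over 100% of its span), LRRC75A-AS1 (93.1%), H1FX (58.8%) and HEXIM1 (47.3%). Counts were tested in R 4.3.3 with edgeR 4.0.16 (quasi-likelihood F-test, TMM scaling, filterByExpr on the 3 groups, all 9 libraries in 1 fit, no covariate), and YKL-5-124 was contrasted with samuraciclib. A gene was called at a Benjamini-Hochberg adjusted p below 0.05 over all tested genes and a log2 difference beyond 0.5. CPM used TMM-scaled library sizes, errors are SE of the fit or SD over 3 libraries, and intervals are 95%. Depth was 18096180 to 28018126 counts per library. The statistics were tested on simulated counts first.

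Named genes were the 15 protein-coding genes furthest in each direction among called genes of at least 10 CPM without overlap between the groups, 3 non-coding genes in each direction by the same rule, up to 6 called members of each list plus up to 2 called against its majority, the genes called in opposite directions against DMSO, and a set of cell cycle, transcription and efflux genes whatever their values. The members and gene lists were chosen with earlier results of these data known. Spans came from the gene positions in the count table, exon counts from GENCODE release 44 matched by gene ID, and start windows from RefSeq GRCh38.p14. Alternatives were other scaling, filters, thresholds, edgeR's glmTreat, DESeq2 1.42.0, the 6 inhibitor libraries alone, a replicate block, thinned counts and leaving out libraries. Values of some genes are not reported here.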

Additional observations from a re-analysis of the deposited data

Results flagged for a closer look

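CYSRT1 was the 1 protein-coding gene of at least 10 CPM that passed the limits in opposite directions when each inhibitor was set against the same DMSO libraries. It lay 0.53 above DMSO with YKL-5-124 (edgeR adjusted p 0.00015) and at −0.51 from DMSO with samuraciclib (adjusted p 0.00052), and the direct difference between the inhibitors was 1.04 on the log2 scale. Each of the 3 YKL-5-124 libraries was above and each of the 3 samuraciclib libraries below every DMSO library. Why the gene differed was not tested.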

How the results depend on the processing

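Against 717 genes higher and 395 lower, the counts without a limit on size were 1888 and 2115, and with a log2 limit of 1 they were 194 and 70. An adjusted p below 0.01 left 416 higher and 280 lower, and edgeR's glmTreat, which tests against the limit itself, left 38 and 33. Scaling by library size alone gave 982 higher and 253 lower, so that 79.5% of calls were higher against 64.5% with TMM scaling, and the median of all genes moved from 0.0079 to 0.077. The other alternatives stayed within 1.5 times of both counts. DESeq2 called 568 and 352, DESeq2 size factors in edgeR gave 691 and 411, and leaving out 1 inhibitor library gave 549 to 671 higher and 345 to 391 lower. The replicate block gave 709 and 392, and under it DANCR and BBS12 were not called. Same-numbered samuraciclib and YKL-5-124 libraries deviated from their group means with correlations of 0.057, 0.17 and 0.094. Differently numbered libraries of these groups had −0.12 to 0.026, below each same-numbered value. Between DMSO and either inhibitor the same-numbered values were −0.056 to 0.065. The numbers were not taken as pairs in the main fit, and whether they mark pairs cannot be told from these values. The libraries low in RN7SL2 correlated across numbers as well, DMSO replicate 3 at 0.15 with replicate 2 of either inhibitor. Of 150 named genes that were called, 36 were called under all 17 alternatives and 95 under all but glmTreat, and none of the 172 named genes reversed. List medians moved by less than the spread between libraries in 691 cases and by more in 128, and medians near 0 changed sign in places, mostly with scaling by library size alone. With that scaling 7 metalloproteinase-list genes were higher in place of 4, and without replicate 1 of YKL-5-124 3 translation factors were lower in place of 5. Depth limits the low genes, since 89.1% of genes at 10 CPM or more but 57.9% of all tested genes had an interval within 0.5.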
